A study of Mus musculus with 10 samples.

Results

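The Hox genes of the mouse Hoxa, Hoxb, Hoxc and Hoxd clusters were followed in J1, an embryonic stem cell line of the mouse, after knockdown of single subunits of the INO80 chromatin remodelling complex. Members were all non-control probes whose array name was Hoxa, Hoxb, Hoxc or Hoxd followed by a paralog number from 1 to 13. This gave 49 probes (58 spots) for 38 genes, out of 28786 gene or transcript names on the array. Of these 38 genes, 11 had 2 probes. The cells were transfected with a non-targeting siRNA (NT) or with an siRNA against Ino80, Ino80b, Ino80c or Ino80e, and total RNA was taken after 96 hours. All groups shared the J1 line, which was kept in ESGRO medium and moved to M15 medium for transfection. Each group held 2 samples that the design text names biological replicates, with 1 array per sample and 10 arrays in all.

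Hox genes encode homeodomain transcription factors that specify position along the body axis. Within a cluster the genes lie in paralog order, and low-numbered genes are switched on earlier and more anteriorly than high-numbered ones in the embryo. In pluripotent cells the clusters are held largely silent under Polycomb marks, and retinoic acid induces the low-numbered genes first.

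Levels are log2 processed signal relative to the 75th percentile of the same array, so a level 1 unit lower is a signal 2-fold lower. Levels are compared between arrays for one probe and not between probes, since probes differ in how strongly they bind. On each array, between 66.39% and 78.96% of the non-control probes passed as well above background, no spot was saturated, and the 75th percentile ranged from 666 to 940 intensity units. The knocked-down transcripts stood at 43.6% (Ino80), 24.9% (Ino80b), 19.7% (Ino80c) and 43.5% (Ino80e) of NT. The first 3 of these falls passed the test by limma, and for Ino80e the adjusted p was 0.0815. The NT arrays were alone on slide 1, Ino80 and Ino80b shared slide 2, and Ino80c and Ino80e shared slide 3. A difference from NT therefore cannot be told apart from a difference between slides, and the 4 comparisons with NT share the NT arrays. Only Ino80 against Ino80b and Ino80c against Ino80e are free of a slide difference. Each of the 9 measured embryonic stem cell markers was well above background on all 10 arrays.

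The sequences that the results turn on are the probes of Hoxb2, Hoxb6 and Hoxb1. Each probe is 60 bases long, and the first 30 bases are shown, written 5′ to 3′ as deposited, with no part in capitals. Hoxb2 and Hoxb6 have a pair of probes whose readings differ, and Hoxb1 was printed on 10 spots.
Hoxb2 A_52_P15300, chr11:96462847-96462906 (mm7), plus strand: tggtaaaactccttccaacgaaatctcagg
Hoxb2 A_51_P257789, chr11:96459585-96459644 (mm7), minus strand: gtaatgtattctatggtgaggcacctatga
Hoxb6 A_52_P648750, chr11:96408006-96408065 (mm7), plus strand: ggtgctatttgacaattcctgcctctgcca
Hoxb6 A_51_P232207, chr11:96410288-96410347 (mm7), plus strand: tcgagtctcatttcgtccatgtcccccgtg
Hoxb1 A_51_P485014, chr11:96476175-96476235 (mm7), plus strand: ttgaattgaacttcctaagtaactgggctt

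Of the 14 Hoxb probes, 13 lie on the plus strand, which is the strand of the Hoxb genes, and the second Hoxb2 probe lies on the minus strand 3262 bases away from the first. Only the first probe is thus placed to read the Hoxb2 transcript. For genes with a RefSeq promoter entry, 28 of 28 Hox probes were on the strand of their gene. The longest run of bases shared by probes of different Hox genes was 22 (Hoxa9 and Hoxb3), against 7 for a pair of probes of the same gene.

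Hox probes were less often detected than other probes. On a given array 24 to 35 of the 49 Hox probes were well above background (48.98% to 71.43%), below the share of all probes on each of the 10 arrays. Both arrays of a group detected 23 Hox probes in NT, 25 in Ino80, 21 in Ino80b, 27 in Ino80c and 23 in Ino80e. Among the genes, 17 were well above background on all 10 arrays, 18 on some arrays, and 3 (Hoxc6, Hoxc8 and Hoxd8) on none. By cluster, the genes seen on all arrays were 5 of 11 in Hoxa, 7 of 10 in Hoxb, 3 of 8 in Hoxc and 2 of 9 in Hoxd. In these bulk samples, fewer cells that express a gene cannot be told apart from less RNA of it per cell.

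**Figure D1:**
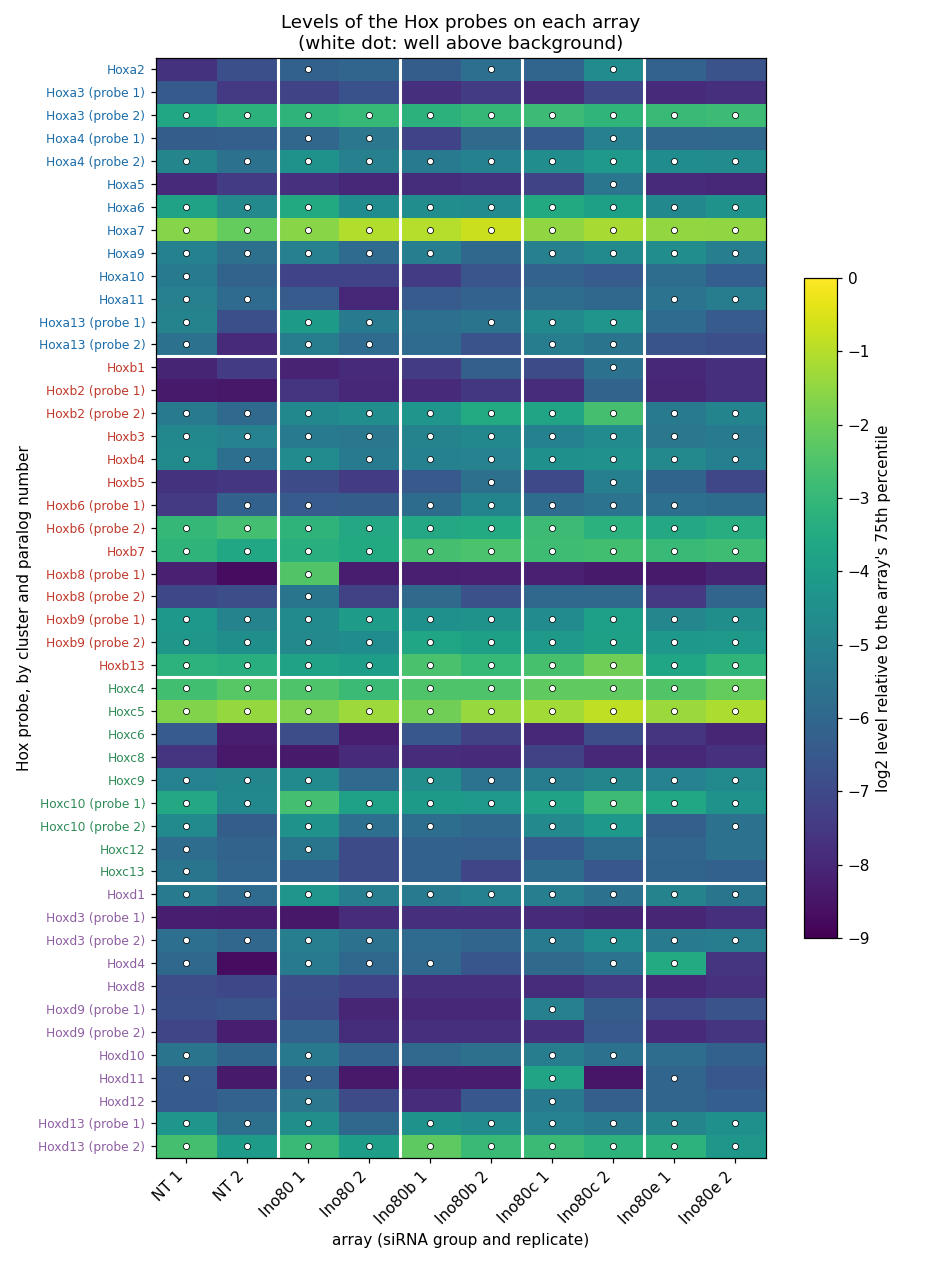
Colour gives the log2 level of 48 Hox probes (rows, by cluster and paralog number) on each of the 10 arrays (columns), and a white dot marks a probe well above background there. Rows can be read from left to right but not against each other; 17 of the drawn probes carry a dot on all 10 arrays and 7 on none.

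Differences from NT could be tested for 24 of the 38 genes, those with a probe that both arrays of some group placed well above background (8 in Hoxa, 7 in Hoxb, 4 in Hoxc and 5 in Hoxd). The other 14 genes never met that filter. Since a gene can enter through the group in which it is high, counts over the 24 do not describe all 38.

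Hoxb2 was the one Hox gene that passed the test in any of the 10 comparisons, and it rose in the Ino80c knockdown. Hoxb2 patterns the hindbrain and the neurons that arise there. Its level was -5.33 and -5.94 on the NT arrays, -4.81 and -4.58 in Ino80, -4.29 and -3.49 in Ino80b, -3.74 and -2.66 in Ino80c, and -5.34 and -4.95 in Ino80e. Both arrays of the Ino80, Ino80b and Ino80c knockdowns lay above both NT arrays, whereas the Ino80e arrays overlapped them. In the Ino80c knockdown the log2 difference was 2.43 ± 0.42 (SE, n = 2 arrays per group), a 5.40-fold rise with a 95% interval of 1.45 to 3.42 on the log2 scale (limma, Benjamini-Hochberg adjusted p = 0.0286). In the Ino80b knockdown the log2 difference was 1.74 ± 0.42 and missed the threshold (limma adjusted p = 0.0539). In the Ino80 and Ino80e knockdowns it was 0.94 ± 0.42 and 0.49 ± 0.42 (adjusted p = 0.176 and 0.464).

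The size and the call of the Hoxb2 rise depended on the values and arrays used. It was 0.88 with normexp background correction (adjusted p = 0.016) and 0.89 in the authors' deposited table (adjusted p = 0.0262), against 2.15 with quantile normalization. Leaving out NT replicate 2 ended the call (adjusted p = 0.129), as did leaving out Ino80c replicate 1 (0.0932) or 2 (0.117), or Ino80e replicate 1 or 2 (0.055 each). It was also lost with no filter on dim probes (0.0589) and with only the 4 arrays compared (0.146). Over 21 alternatives the log2 difference ran from 0.88 to 2.97 and the adjusted p from 0.0113 to 0.146.

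The difference between knockdowns was tested for Hoxb2 as well. On their shared slide, Ino80c exceeded Ino80e by 1.94 ± 0.42 (limma adjusted p = 0.156), and Ino80 lay below Ino80b by 0.80 ± 0.42 (adjusted p = 0.625). Neither passed, so the Hoxb2 rise is not shown to be particular to Ino80c.

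No array placed the minus-strand Hoxb2 probe well above background, with levels from -8.42 (NT replicate 2) to -6.13 (Ino80c replicate 2). Hoxb1, the neighbour of Hoxb2 and an early retinoic acid responsive gene of the hindbrain, was well above background on Ino80c replicate 2 alone. There, 8 of 10 Hoxb1 spots were well above background, with a mean of -5.60 and a range of -6.06 to -5.16. On Ino80b replicate 2 it was 1 of 8 unflagged spots, and on the other arrays 0. Its mean was -8.06 and -7.43 on the NT arrays, -8.16 and -7.91 in Ino80, -7.42 and -6.28 in Ino80b, -6.90 on the other Ino80c array, and -7.98 and -7.78 in Ino80e. The Ino80c replicate 2 spots lay above all spots of the NT arrays, of which the brightest was -6.65. Ino80c replicate 2 was also the highest array for 7 of the 24 Hox genes tested, where it was the highest for 11.7% of all genes tested. Over all 49 Hox probes, dim ones included, it was the highest for 15, and no share over all probes was taken.

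**Figure D2:**
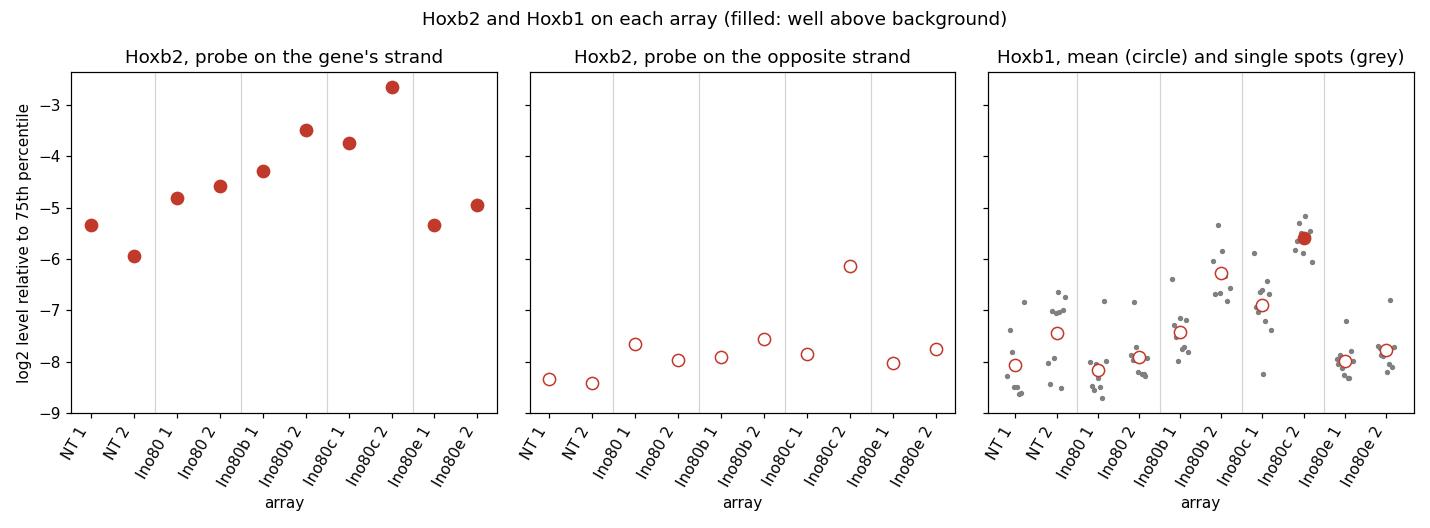
Log2 levels on each array of the Hoxb2 probe on the gene's strand (left), the Hoxb2 probe on the opposite strand (middle) and Hoxb1 with its single spots in grey (right); filled circles are well above background. Hoxb2 runs from -5.94 on NT replicate 2 to -2.66 on Ino80c replicate 2, and Hoxb1 is filled on Ino80c replicate 2 alone.

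Counts of called Hox genes are given beside the share of all genes called, and no test of these counts was made. In the Ino80 knockdown 0 of 24 were called by limma, where 12.2% of the 20663 genes tested were. In the Ino80b knockdown 0 of 24 were called, against 6.41% of all genes. In the Ino80c knockdown 1 of 24 was called, against 6.28%. In the Ino80e knockdown 0 of 24 and 0% of all genes were called. Called higher than NT were 0, 0, 1 and 0 Hox genes, where 7.49%, 3.74%, 4.69% and 0% of all genes were. At an unadjusted p under 0.05, 5, 5, 6 and 5 of the 24 passed in the Ino80, Ino80b, Ino80c and Ino80e knockdowns, where 31.2%, 29.3%, 30.4% and 28.5% of all genes did. The Hox genes were measured less precisely, with a median SE of 0.34 against 0.21 for all genes.

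The median over the 24 tested genes was highest in the Ino80c knockdown. Genes could enter the 24 through the group in which they were high, as Hoxd10 did through Ino80c alone. Ino80c also had the most Hox probes detected on both arrays (27), so this median and the counts below can favour Ino80c. The median log2 difference of the 24 genes from NT was 0.13 (Ino80), 0.13 (Ino80b), 0.52 (Ino80c) and 0.27 (Ino80e). All genes had medians of 0.17, 0.13, 0.25 and 0.19. Relative to all genes the Hox median was thus -0.04, 0.00, 0.27 and 0.08. Taken per array, this relative median had an SD between replicates of 0.21 (NT), 0.33 (Ino80), 0.02 (Ino80b), 0.09 (Ino80c) and 0.07 (Ino80e). Both Ino80c arrays lay above both NT arrays for 14 of 24 Hox genes, against 44.2% of all genes, and below them for 0, against 16%. In the other knockdowns, Hox genes lay above both NT arrays in 7 (Ino80, 35.4% of all genes), 7 (Ino80b, 37.1%) and 8 (Ino80e, 40.7%) of 24. They lay below both in 5 (18.6%), 2 (21.2%) and 2 (17.1%). Scaling moved these counts and the shares of all genes with them. For Ino80c, 18 Hox genes were above and 0 below NT with normexp (52.4% and 14.7% of all genes), and 11 and 3 with quantile normalization (32% and 23%). With median scaling they were 10 and 3 (24.3% and 27.3%), and 7 and 0 in the authors' deposited table (27.4% and 27.1%). The side on which the called genes fell moved too, with 74.7% of all Ino80c calls higher than NT in the main setting, 54.1% with quantile normalization, 34% with median scaling and 27.9% in the authors' deposited table. For Ino80 these shares were 61.1%, 52.4%, 40.3% and 59%, and for Ino80b 58.3%, 53.1%, 45.7% and 38%; with normexp they were 61.5% and 68.8%, and 76.9% for Ino80c. Of the 24 Hox genes, 20 (Ino80), 17 (Ino80b), 19 (Ino80c) and 16 (Ino80e) kept the sign of their difference from NT in all 4 other scalings.

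Replicates were further apart in NT and Ino80 than in the other groups. The median gap between replicates over the 24 Hox genes was 0.53 in NT and 0.62 in Ino80, against 0.23, 0.37 and 0.34 in Ino80b, Ino80c and Ino80e. Over all genes tested the gap was also wider in NT (0.29) and Ino80 (0.28) than in Ino80b, Ino80c and Ino80e (0.19 each). NT replicate 2 was the lowest of the 10 arrays for 9 of the 24 genes, and the share over all genes was not counted. Without NT replicate 1 the Hox median relative to all genes became 0.25 (Ino80), 0.24 (Ino80b) and 0.47 (Ino80c), and 5 Hox genes were called in the Ino80c knockdown, where 15.2% of all genes were. Without NT replicate 2, 0 were called there, and 0.0532% of all genes.

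**Figure D3:**
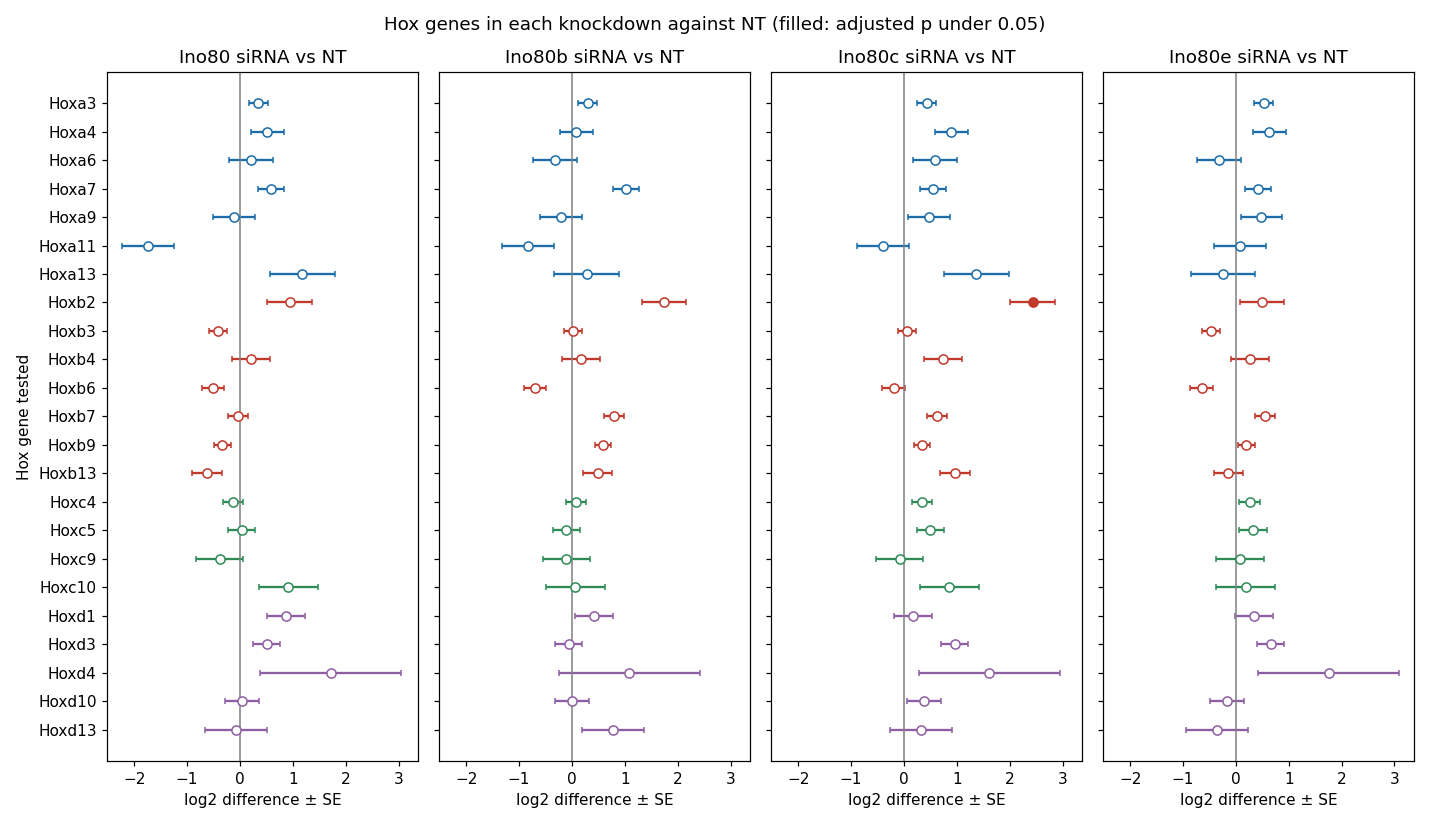
Log2 difference from NT (x axis, ± SE, 2 arrays per group) for 23 of the Hox genes tested (y axis) in each knockdown; filled points have an adjusted p under 0.05. Hoxb2 in the Ino80c knockdown is the one filled point, and Hoxd4 has the widest bars (SE 1.33).

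Among the anterior paralogs of groups 1 to 4, Hoxa3, needed for the thymus and other pharyngeal derivatives, stood at -3.61 and -3.20 in NT, -3.13 and -2.98 in Ino80, -3.21 and -3.01 in Ino80b, -2.83 and -3.12 in Ino80c, and -2.91 and -2.85 in Ino80e. The NT arrays were the low pair, with Ino80b overlapping them, and no difference exceeded 0.53 ± 0.18 (Ino80e, adjusted p = 0.123). Hoxa4 stood at -4.89 and -5.63 in NT, -4.42 and -5.07 in Ino80, -5.31 and -5.06 in Ino80b, -4.59 and -4.14 in Ino80c, and -4.61 and -4.64 in Ino80e. Its Ino80c and Ino80e arrays lay above both NT arrays, with differences of 0.90 ± 0.31 and 0.63 ± 0.31 (adjusted p = 0.112 and 0.223).

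Hoxb3 moved little, at -4.80 and -5.01 in NT, -5.24 and -5.40 in Ino80, -4.96 and -4.81 in Ino80b, -5.03 and -4.66 in Ino80c, and -5.44 and -5.32 in Ino80e. The Ino80 and Ino80e arrays lay below both NT arrays, by 0.41 ± 0.17 and 0.47 ± 0.17 in the mean (adjusted p = 0.149 and 0.131). Hoxb4, a regulator of blood stem cells, stood at -4.68 and -5.72 in NT, -4.64 and -5.33 in Ino80, -5.03 and -5.02 in Ino80b, -4.48 and -4.43 in Ino80c, and -4.76 and -5.10 in Ino80e. The gap between the NT arrays exceeded every mean difference of Hoxb4 from NT, of which the largest was 0.74 ± 0.36 in Ino80c (adjusted p = 0.201).

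Hoxc4 lay at -2.73 and -2.35 in NT, -2.49 and -2.86 in Ino80, -2.48 and -2.46 in Ino80b, -2.20 and -2.21 in Ino80c, and -2.43 and -2.13 in Ino80e. Its Ino80c arrays were above both NT arrays, by 0.34 ± 0.19 in the mean (adjusted p = 0.264). Hoxd1 stood at -5.28 and -5.87 in NT, -4.26 and -5.14 in Ino80, -5.27 and -5.05 in Ino80b, -5.16 and -5.65 in Ino80c, and -4.97 and -5.49 in Ino80e. The Ino80 and Ino80b arrays lay above both NT arrays, with a difference of 0.87 ± 0.36 for Ino80 (adjusted p = 0.146).

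Hoxd3 stood at -5.72 and -6.05 in NT, -5.13 and -5.63 in Ino80, -5.84 and -6.06 in Ino80b, -5.24 and -4.61 in Ino80c, and -5.29 and -5.17 in Ino80e. It was not well above background on the Ino80b arrays, and the Ino80, Ino80c and Ino80e arrays lay above both NT arrays, by 0.96 ± 0.26 for Ino80c (adjusted p = 0.0688). Hoxd4 had the lowest precision of the Hox genes. It stood at -5.97 and -8.69 in NT, -5.28 and -5.95 in Ino80, -5.91 and -6.60 in Ino80b, -5.88 and -5.56 in Ino80c, and -3.51 and -7.64 in Ino80e. NT replicate 2, Ino80b replicate 2, Ino80c replicate 1 and Ino80e replicate 2 were not well above background, and the SE of its differences was 1.33.

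Taken by position, the 10 genes of groups 1 to 4 had a median difference from NT of 0.70 in Ino80c, with 10 of 10 above 0, where the 9 genes of groups 9 to 13 had 0.38, with 7 of 9 above 0. In Ino80 these medians were 0.51 and -0.12, in Ino80b 0.24 and 0.06, and in Ino80e 0.51 and 0.07. The genes of groups 5 to 8 had medians of 0.54 (Ino80c), 0.03 (Ino80), -0.11 (Ino80b) and 0.33 (Ino80e), so the medians did not follow paralog order in Ino80b. Over all genes the medians were 0.25 (Ino80c), 0.17 (Ino80), 0.13 (Ino80b) and 0.19 (Ino80e), and the share of all genes above 0 was not counted. Groups 1 to 4 include Hoxd4, kept through Ino80 alone and with an SE of 1.33. The comparisons with NT share its arrays. On a shared slide, Ino80c minus Ino80e, groups 1 to 4 had a median of 0.18 and groups 9 to 13 of 0.56. The signs of Hoxb3 and Hoxd1 in Ino80c turned under other scalings, so the count of 10 holds for the main scaling. No test of position was made.

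Among the middle paralogs of groups 5 to 8, Hoxa7 and Hoxb7, which pattern the trunk, came nearest to a call in the Ino80b knockdown. Hoxa7 stood at -1.64 and -2.13 in NT, -1.59 and -1.03 in Ino80, -0.998 and -0.72 in Ino80b, -1.49 and -1.19 in Ino80c, and -1.45 and -1.48 in Ino80e. All knockdown arrays lay above both NT arrays, and the Ino80b difference was 1.03 ± 0.25 (limma adjusted p = 0.0539, passing in 9 of 21 alternatives). Hoxb7 stood at -3.14 and -3.65 in NT, -3.32 and -3.54 in Ino80, -2.66 and -2.54 in Ino80b, -2.81 and -2.71 in Ino80c, and -2.89 and -2.79 in Ino80e. The Ino80 arrays lay within the NT pair and the other knockdown arrays above it, by 0.79 ± 0.19 in Ino80b (adjusted p = 0.0523), 0.63 ± 0.19 in Ino80c (0.0813) and 0.56 ± 0.19 in Ino80e (0.119).

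Hoxa6 stood at -3.82 and -4.77 in NT, -3.55 and -4.62 in Ino80, -4.58 and -4.66 in Ino80b, -3.54 and -3.87 in Ino80c, and -4.81 and -4.42 in Ino80e. Its groups overlapped NT throughout. Hoxc5 stood at -1.69 and -1.41 in NT, -1.74 and -1.30 in Ino80, -1.95 and -1.38 in Ino80b, -1.24 and -0.87 in Ino80c, and -1.37 and -1.09 in Ino80e. The Ino80c and Ino80e arrays lay above both NT arrays, by 0.50 ± 0.26 in Ino80c (adjusted p = 0.231).

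The pair of Hoxb6 probes disagreed in sign in all 4 knockdowns. The brighter probe, A_52_P648750, stood at -3.01 and -2.68 in NT, -3.15 and -3.56 in Ino80, -3.58 and -3.50 in Ino80b, -2.83 and -3.24 in Ino80c, and -3.58 and -3.40 in Ino80e. The dimmer one, A_51_P232207, stood at -7.48 and -6.21 in NT, -6.42 and -6.35 in Ino80, -5.83 and -4.94 in Ino80b, -5.78 and -5.58 in Ino80c, and -5.70 and -5.81 in Ino80e. In the Ino80b knockdown the brighter probe was lower than NT by 0.70 ± 0.21 and the dimmer one higher by 1.46 ± 0.42 (limma over single probes, adjusted p = 0.0878 and 0.0798). The dimmer probe was not well above background on NT replicate 1, Ino80 replicate 2 and Ino80e replicate 2. The accession of the dimmer probe was matched in RefSeq and that of the brighter one was not. The array's name for these probes is Hoxb6 in both cases, so a direction for Hoxb6 is uncertain. Of the 6 genes with a pair of kept probes, the signs differed for 2 in Ino80 (Hoxb6, Hoxb9), 3 in Ino80b (Hoxa4, Hoxb6, Hoxc10), 2 in Ino80c (Hoxb6, Hoxd13) and 5 in Ino80e (Hoxa13, Hoxb6, Hoxb9, Hoxc10, Hoxd13).

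Among the posterior paralogs of groups 9 to 13 was Hoxb13, a gene of the tail end and the prostate. Its differences from NT had both signs, and no pair of knockdowns passed the test for it in the main setting. It stood at -3.19 and -3.34 in NT, -3.82 and -3.94 in Ino80, -2.57 and -2.98 in Ino80b, -2.63 and -1.97 in Ino80c, and -3.68 and -3.12 in Ino80e. The Ino80 arrays lay below both NT arrays and the Ino80b and Ino80c arrays above them. Against NT the differences were -0.62 ± 0.28 (Ino80), 0.49 ± 0.28 (Ino80b) and 0.96 ± 0.28 (Ino80c), with adjusted p of 0.179, 0.288 and 0.077. Ino80 lay below Ino80c by 1.58 ± 0.28, the lowest adjusted p of any Hox gene in a pair of knockdowns (limma, 0.0556). Ino80 and Ino80c were on different slides.

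Hoxb9 stood at -4.25 and -4.50 in NT, -4.78 and -4.63 in Ino80, -3.70 and -3.87 in Ino80b, -4.16 and -3.90 in Ino80c, and -4.19 and -4.16 in Ino80e. The Ino80 arrays were the low pair and the Ino80b arrays the high pair, with differences from NT of -0.33 ± 0.16 and 0.59 ± 0.16 (adjusted p = 0.191 and 0.0655). Hoxc9, which acts in thoracic motor neurons, stood at -5.03 and -4.86 in NT, -4.72 and -5.94 in Ino80, -4.54 and -5.56 in Ino80b, -5.17 and -4.88 in Ino80c, and -5.01 and -4.71 in Ino80e. All its groups overlapped NT.

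Hoxc10 stood at -3.57 and -4.78 in NT, -2.68 and -3.85 in Ino80, -4.10 and -4.13 in Ino80b, -3.80 and -2.83 in Ino80c, and -3.63 and -4.36 in Ino80e. All groups overlapped the NT pair. Hoxd13 stood at -2.64 and -4.07 in NT, -2.90 and -3.95 in Ino80, -2.22 and -2.94 in Ino80b, -2.88 and -3.17 in Ino80c, and -3.18 and -4.25 in Ino80e. Here too every group overlapped NT.

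Hoxa11 and Hoxa13, which shape the limb and the urogenital tract, had differences of opposite sign in the Ino80 knockdown, and neither was called. Hoxa11 stood at -5.07 and -5.86 in NT, -6.43 and -8.005 in Ino80, -6.43 and -6.16 in Ino80b, -5.77 and -5.97 in Ino80c, and -5.57 and -5.23 in Ino80e. It was well above background on both NT and both Ino80e arrays and not well above background on the other 6. In the Ino80 knockdown its mean was -7.22 against -5.47 in NT, which makes it at least 1.72-fold lower (limma adjusted p = 0.0598). That bound sets the NT mean against the lowest signal well above background on the Ino80 arrays, or the probe's own signal where higher. Hoxa13 stood at -4.99 and -6.80 in NT, -4.11 and -5.32 in Ino80, -5.71 and -5.53 in Ino80b, -4.74 and -4.30 in Ino80c, and -5.87 and -6.41 in Ino80e. Its Ino80 arrays overlapped the NT pair, with a difference of 1.18 ± 0.61 in the mean. The Ino80c arrays of Hoxa13 lay above both NT arrays, by 1.37 ± 0.61 in the mean (adjusted p = 0.179), but NT replicate 2 was not well above background.

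Hoxa9 and Hoxd10 had no difference from NT beyond 0.48 ± 0.40 and 0.38 ± 0.32. The 14 genes never tested were Hoxa2, Hoxa5, Hoxa10, Hoxb1, Hoxb5, Hoxb8, Hoxc6, Hoxc8, Hoxc12, Hoxc13, Hoxd8, Hoxd9, Hoxd11 and Hoxd12. Hoxd11 was well above background on 4 arrays, at -6.38 on NT replicate 1, -6.25 on Ino80 replicate 1, -3.74 on Ino80c replicate 1 and -6.07 on Ino80e replicate 1. The other Ino80c array stood at -8.44.

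Between knockdowns, 0 of 24 Hox genes passed the test in each of the 6 pairs. The pairs called 0.0678% (Ino80 against Ino80b), 1.04% (Ino80 against Ino80c), 3.08% (Ino80 against Ino80e), 0.029% (Ino80b against Ino80c), 0.697% (Ino80b against Ino80e) and 0.0339% (Ino80c against Ino80e) of all genes. At an unadjusted p under 0.05 the Hox counts were 4, 7, 3, 3, 5 and 4 of 24, where 8.95%, 15.1%, 19.7%, 10.2%, 14.5% and 10.7% of all genes passed by limma.

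The genes at an unadjusted p under 0.05 in Ino80 against Ino80b, which share a slide, were all in the Hoxb cluster. Hoxb9 was lower with Ino80 siRNA by 0.92 ± 0.16, Hoxb7 by 0.83 ± 0.19, Hoxb13 by 1.10 ± 0.28 and Hoxb3 by 0.44 ± 0.17 (limma adjusted p = 0.159, 0.265, 0.296 and 0.511). The second Hoxb9 probe, A_52_P973575, also well above background on all 10 arrays, gave 0.04 ± 0.36 for Ino80 minus Ino80b. The median difference of the 7 Hoxb genes, Ino80 minus Ino80b, was -0.80, with 5 of 7 below 0. The medians of the Hoxa, Hoxc and Hoxd genes were 0.26, -0.03 and 0.46, and that of all genes was 0.02. Relative to all genes the Hoxb median was -0.82, and it ran from -0.88 to -0.40 over 20 alternatives, being -0.45 without Ino80b replicate 2 and -0.48 with the mean of probes.

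On the other shared slide, Ino80c minus Ino80e, the 7 Hoxb genes were all above 0, with a median of 0.47 against 0.02 for all genes. Those with the lowest p were Hoxb2 and Hoxb13, with differences of 1.94 ± 0.42 and 1.10 ± 0.28 (limma adjusted p = 0.156 and 0.203). With normexp 4 of the 7 were above 0 and with quantile normalization 5 of 7. Relative to all genes the Hoxb median was 0.45 and ran from 0.13 to 0.53 over 20 alternatives. The cluster was singled out after its values were seen, and no test of the cluster was made.

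**Figure D4:**
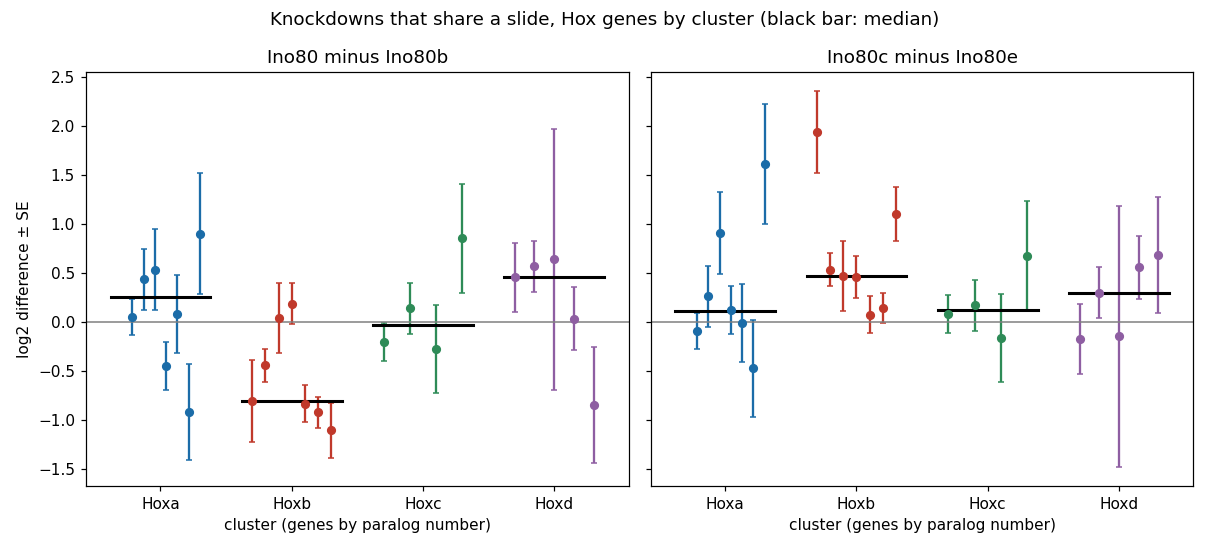
Log2 difference ± SE (2 arrays per group) between knockdowns that share a slide, for 23 Hox genes by cluster and in paralog order, with the median of all tested genes of the cluster as a black bar. The Hoxb bar lies at -0.80 for Ino80 minus Ino80b and at 0.47 for Ino80c minus Ino80e.

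The partners and regulators of the Hox genes were read from lists. Of 9 Hox cofactors of the Pbx, Meis and Pknox families, which bind DNA together with Hox proteins, Pknox2 was called in the Ino80 knockdown (higher by 0.98 ± 0.25, limma adjusted p = 0.045) and none in the others. That call held in 2 of 4 other scalings. All 9 were well above background on all 10 arrays. Among all genes tested, 12.2% were called in Ino80, 6.41% in Ino80b, 6.28% in Ino80c and 0% in Ino80e.

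Of 28 upstream regulators, 2 rose and 3 fell in Ino80, 1 rose and 2 fell in Ino80b, 2 rose and 1 fell in Ino80c, and 0 were called in Ino80e. Over all genes, 12.2%, 6.41%, 6.28% and 0% were called. Egr2, the zinc finger factor known to bind enhancers of Hoxa2 and Hoxb2 in the hindbrain, rose by 1.10 ± 0.16, 0.89 ± 0.16 and 1.03 ± 0.16 in the Ino80, Ino80b and Ino80c knockdowns (adjusted p = 0.0102, 0.032 and 0.0255). Its levels were -3.85 and -4.14 in NT, -3.03 and -2.77 in Ino80, -3.20 and -3.01 in Ino80b, -3.05 and -2.87 in Ino80c, and -3.22 and -3.20 in Ino80e. All 8 knockdown arrays, Ino80e included, lay above both NT arrays. In Ino80e the Egr2 difference was 0.79 ± 0.16 (adjusted p = 0.0783).

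Cdx2, a caudal factor that activates trunk Hox genes, rose by 0.69 ± 0.12 in Ino80 and 0.56 ± 0.12 in Ino80c (adjusted p = 0.0153 and 0.0427), and 1 of 4 other scalings kept the Ino80c call. Pcgf2, a subunit of the Polycomb repressive complex that marks silent Hox clusters, fell by 1.58 ± 0.32, 1.55 ± 0.32 and 1.75 ± 0.32 in Ino80, Ino80b and Ino80c (adjusted p = 0.0247, 0.0407 and 0.0321). In Ino80e its difference was -1.66 ± 0.32 and missed the threshold (adjusted p = 0.0729). Eed fell by 0.54 ± 0.12 in Ino80 and Ring1 by 0.66 ± 0.15 in Ino80b, both Polycomb subunits too (adjusted p = 0.0367 and 0.0469). Gbx2, which sets the midbrain-hindbrain boundary, fell by 1.18 ± 0.13 in Ino80 (adjusted p = 0.0043).

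Of 18 measured retinoic acid genes, 2 rose and 2 fell in Ino80, 1 rose and 2 fell in Ino80b, 1 rose in Ino80c, and 0 were called in Ino80e, beside the shares of all genes given for the regulators. The receptor genes Rara and Rarg fell by 1.63 ± 0.28 and 1.43 ± 0.27 in Ino80 (adjusted p = 0.0146 and 0.0197) and by 1.38 ± 0.28 and 1.44 ± 0.27 in Ino80b (0.0379 and 0.0329). In Ino80c their differences were -1.19 ± 0.28 and -1.14 ± 0.27 (0.0509 and 0.0528), and in Ino80e -1.16 ± 0.28 and -0.94 ± 0.27 (0.0849 and 0.0983). The receptor gene Rxrg rose by 0.90 ± 0.19, 1.20 ± 0.19 and 1.23 ± 0.19 in Ino80, Ino80b and Ino80c (0.0284, 0.0223 and 0.0255).

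Several genes that flank the clusters fell, out of 5 listed for each cluster, and 0 were called higher. Called lower in Ino80 were 1 near Hoxa, 1 near Hoxb and 2 near Hoxc. In Ino80b and in Ino80c these counts were 1, 0 and 2, and in Ino80e 0 were called. Of all genes, 12.2%, 6.41%, 6.28% and 0% were called in either direction in Ino80, Ino80b, Ino80c and Ino80e. Evx1, next to Hoxa13, fell by 1.67 ± 0.32, 1.57 ± 0.32 and 1.65 ± 0.32 in Ino80, Ino80b and Ino80c (limma adjusted p = 0.0218, 0.0401 and 0.0362). Its levels were -2.02 and -2.57 in NT, -3.55 and -4.37 in Ino80, -3.86 and -3.86 in Ino80b, -4.07 and -3.82 in Ino80c, and -3.28 and -3.84 in Ino80e. Every knockdown array of Evx1 lay below both NT arrays. Near Hoxc, Calcoco1 and Nfe2 fell in the same 3 knockdowns, by between 1.01 ± 0.16 and 1.54 ± 0.21. In Ino80e, Calcoco1 stood at -2.02 and -2.27, against -1.10 and -0.89 in NT, and was not called. Nfe2 stood there at -2.87 and -2.68, against -2.53 and -2.29 in NT, and was not called either. Near Hoxb, Ndp52 (Calcoco2) fell by 0.96 ± 0.24 in Ino80 (0.0441), and 0 of 5 Hoxd neighbours were called in any knockdown against NT.

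Markers of other cell types moved in part with these groups. Called among all genes were 12.2% (Ino80), 6.41% (Ino80b), 6.28% (Ino80c) and 0% (Ino80e). Of all genes, 7.49%, 3.74%, 4.69% and 0% were called higher in these knockdowns. Nanog and Esrrb, embryonic stem cell markers, fell in Ino80, Ino80b and Ino80c, and Pou5f1 in Ino80 and Ino80b, out of 9 measured. Of 14 tested fibroblast feeder or mesenchymal markers, 5 rose in Ino80, 2 in Ino80b, 3 in Ino80c and 0 in Ino80e, led by Dcn, which rose by 2.30 ± 0.32, 1.40 ± 0.32 and 2.08 ± 0.32 in the first 3. The summed linear level of that list, in multiples of the 75th percentile, ran from 31.0 to 33.1 on the NT arrays, 38.6 to 40.1 in Ino80, 26.0 to 31.7 in Ino80b, 27.3 to 32.1 in Ino80c and 22.7 to 25.7 in Ino80e. Most of that sum came from Acta2 and Tagln, so it does not follow dimmer markers such as Dcn. Acta2 stood at 4.61 and 4.38 in NT and at 4.11 and 3.82 in Ino80c. In other scalings the Dcn call held in 0 of 4 for Ino80b. Of the 15 listed feeder markers, 11 were well above background on all 10 arrays and the other 4 on some.

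Neural markers summed to 7.51 to 8.94 in NT and 7.998 to 8.352 in Ino80c. Of 6 tested, 1 (Nes) was called, in Ino80. The shares of all genes called, given with the feeder markers, apply to these lists too. Primitive streak and mesoderm markers summed to 0.592 to 0.638 in NT and 0.588 to 0.657 in Ino80c, with Msgn1 called higher in Ino80c and Meox1 and Gata4 lower in Ino80, out of 8 tested. Endoderm markers fell in 5 of 5 (Ino80) and 4 of 5 (Ino80b). The other marker, Foxa2, stood higher in Ino80b, at -0.28 and -0.70 against -1.37 and -2.31 in NT, and was not called. The 6 listed summed to 2.55 to 3.07 in NT and 0.765 to 0.766 in Ino80. In Ino80b they summed to 1.54 to 1.76 and in Ino80c to 2.06 to 2.45. Afp (endoderm) and Foxf1 (mesoderm) were well above background on none of the arrays. The signs of all called genes of these lists held in the 4 other scalings. The part of these cell types in the Hox values was not tested.

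Promoter sequence was available for 24 promoters of 22 Hox genes (RefSeq, GRCm38.p6). In the 250 bases before the start site, Hox promoters held a median of 12.5 CpG dinucleotides, from 2 (Hoxd11) to 35 (Hoxa13), against 6 over 32841 promoters. The letters TAAT, the core that homeodomains bind, were present on either strand in 75% of the Hox windows and 54.9% of all. These are descriptions of sequence and not of binding. Hoxb1, like some other untested Hox genes, was well above background on 1 array alone. It had 7 CpGs, marked in capitals, in this window at chr11:96365508-96365757 (plus strand).
Hoxb1: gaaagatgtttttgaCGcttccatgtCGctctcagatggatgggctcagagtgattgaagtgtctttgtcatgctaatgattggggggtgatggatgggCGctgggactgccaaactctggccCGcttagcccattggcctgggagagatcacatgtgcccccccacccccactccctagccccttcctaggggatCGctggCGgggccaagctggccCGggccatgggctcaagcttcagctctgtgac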

How the data were processed

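RNA of 10 samples was hybridised to Agilent 4x44K arrays and read in 1 colour; the labels name Cy5, while the files hold the green channel. Feature Extraction 9.5.3.1 read the spots, per the file headers, and each deposited intensity is a processed signal, background-subtracted and detrended within its array. The value table that the authors deposited is on a log2 scale; each column equalled the log2 mean signal of its array plus a constant (column medians 6.76 to 6.869), so scale and direction are known and the scaling between arrays is not.

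Control spots and outlier flags were left out, spots of a probe averaged, and the 75th percentile of each array subtracted from the log2 signal. A probe was kept if both arrays of some group had it well above background (29587 of 41174). The brightest probe represented a gene, giving 20663 genes. limma 3.58.1 (R 4.3.3, the data.table package, version 1.17.8) was fitted to all 10 arrays with group as the term and tested on simulated data; p-values are two-sided, adjusted by Benjamini-Hochberg over the 20663 genes, and called under 0.05. The number of arrays limits the precision. Figures were drawn with matplotlib. Probe coordinates are on mm7, per the file headers.

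Values per array are given for Hox genes called anywhere, well above background on all 10 arrays, or among the 3 largest rises or falls of a knockdown; other genes come from lists. The members, lists and rules were chosen with earlier results of these data known. Replicate numbers were not taken as pairing the samples, since not every pair of groups had a correlation of deviations over 0.1 (0.0041 to 0.321, 8 of 10 over 0.1). Alternatives covered background correction, scaling, filter, probe choice, model and left-out arrays. The Hoxb medians within a slide and the overlap counts by scaling were added after seeing the data. The submitters call the samples biological replicates, with no statement of separate cultures, so p-values measure the spread between these samples. Values of some single genes are not reported here; counts and medians include them.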

Additional observations from a re-analysis of the deposited data

Results flagged for a closer look

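Single knockdown arrays showed untested Hox genes well above background and above both NT arrays, where those probes were not well above background. Levels are log2 relative to the 75th percentile, and none of them was seen on both arrays of its group. Hoxa2, a hindbrain gene, stood at -6.21 on Ino80 replicate 1, -5.70 on Ino80b replicate 2 and -4.64 on Ino80c replicate 2, against -6.79 on the higher NT array. Ino80c replicate 2 also held Hoxa5 at -5.46 (NT at most -7.43), Hoxb1 at -5.60 (NT at most -7.43) and Hoxb5 at -5.12 (NT at most -7.59), and Ino80b replicate 2 held Hoxb5 at -5.67.

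Both Hoxb8 probes were well above background on Ino80 replicate 1 alone, at -2.45 and -5.49, against at most -8.19 and -6.82 in NT; Ino80 replicate 2 stood at -8.28 and -7.26. Hoxd9 stood at -5.06 on Ino80c replicate 1 (NT at most -6.65). Hoxd12 stood at -5.43 on Ino80 replicate 1 and -5.31 on Ino80c replicate 1 (NT at most -6.19). These are single spots, except for Hoxb1. The rule looked only for knockdown arrays above NT. In the other direction, the untested genes Hoxa10 (-5.29) and Hoxc13 (-5.49) were well above background on NT replicate 1 alone. The share of all probes with such single-array readings was not counted.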

How the results depend on the processing

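The main counts of called Hox genes against NT were 0 (Ino80), 0 (Ino80b), 1 (Ino80c) and 0 (Ino80e). With normexp they were 1, 3, 6 and 6, where 18.6%, 15.9%, 20.4% and 26.1% of all genes were called. With quantile normalization 2 were called in Ino80 and 2 in Ino80b (14% and 7.5% of all genes), with median scaling 1 in Ino80 (7.47%), and from the authors' deposited table the counts were 1 in Ino80 and 2 in Ino80b (18% and 11.3%). The stricter filter gave 1 (Ino80, 19.5%) and 4 (Ino80b, 13%), and the trended robust prior 1 and 3 (17.9% and 13.7%). In Ino80c the count was 0 with no filter and 0 with only the 4 arrays compared. The samples share a replicate number only: with the replicate block 2 were called in Ino80, 5 in Ino80b and 3 in Ino80c (23.7%, 17.4% and 18% of all genes), among them Hoxb2 in Ino80b (adjusted p = 0.0353). In Ino80 against Ino80c (0 in the main setting) 2 were called with normexp and 1 each from the values the authors deposited, with the stricter filter, the replicate block and the trended robust prior; in Ino80 against Ino80e (0) 5 with normexp and 1 with quantile normalization. Leaving out 1 array, the counts ran from 0 to 1 (Ino80; 1 without NT replicate 1 or Ino80 replicate 1), 0 to 3 (Ino80b; 3 without NT replicate 1), 0 to 5 (Ino80c; 5 without NT replicate 1, 0 without NT replicate 2, either Ino80c array or either Ino80e array), and 0 to 1 in Ino80 against Ino80e. Over the same settings the Hox median relative to all genes ran from -0.26 to 0.25 (Ino80), -0.10 to 0.24 (Ino80b), 0.11 to 0.47 (Ino80c) and 0.02 to 0.18 (Ino80e); with the mean of probes it was 0.16 in Ino80b. Signs turned for Hoxb6 with the mean of probes (0.38 in Ino80b, 0.22 in Ino80e) and for Hoxb3 in Ino80e with normexp (0.24). Over all genes the count in Ino80c against NT was 1297 in the main setting, 142 with no filter, 11 without NT replicate 2 and 0 with only the 4 arrays compared. The cause of these shifts was not tested. A slide block against NT could not be fitted, since NT is alone on its slide. Signals near background limit the Hox values: 14 of 38 genes had none that could be tested.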
